A study of Homo sapiens with 24 samples.

Results

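The 39 genes described here belong to glycolysis, lactate handling and the response to low oxygen. They were chosen by symbol from a list, not by their values, and all 39 were found among the 25559 genes counted in each library. They comprised 2 glucose transporters, 16 glycolytic enzymes (the lactate dehydrogenases LDHA and LDHB included), 2 lactate transporters, 4 regulators of glycolytic flux, 3 oxygen sensing genes and 12 other targets of the hypoxia-inducible factor HIF. Of the 39, 35 reached a mean of at least 1 CPM over the 24 libraries (CPM is counts per 1000000 counts of the library, not corrected for gene length). EGLN3, CA9, ADM and P4HA2 stayed under it.

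RNA was sequenced from 3 human lines of malignant T cells, with 24 libraries in all. HH derives from a cutaneous T-cell lymphoma, TLOm1 from adult T-cell leukemia and PF382 from acute lymphoblastic leukemia of the T lineage. Cells in logarithmic growth were untreated or received azacitidine (AZA) or decitabine for 96 h, with fresh drug every 24 h, and each condition was sequenced once. Decitabine was given at 5, 12.5 and 25 nM in each line. AZA was given at 125, 250 and 500 nM, except in HH, which received 50, 125 and 250 nM. Title prefixes divide the libraries into an AZA set and a decitabine set, each with an untreated library of every line. The labels name no allele or transgene. They do not say whether the doses of a line came from separate cultures, so the p-values reflect the scatter among these libraries, which may be technical. The libraries of the AZA set held 16175077 to 32496676 counts and those of the decitabine set 13892514 to 29793985, and a count of 0 in the shallowest one allows up to 0.216 CPM (3 counts, counting error only). Levels below are in CPM, whereas folds and tests also use TMM normalization factors, which ran from 0.922 to 1.18.

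Glycolysis splits glucose to pyruvate, and lactate dehydrogenase turns pyruvate into lactate, which monocarboxylate transporters carry out of the cell. Proliferating T cells and their malignant counterparts use the pathway heavily, and MYC and HIF are known to raise transcription of its genes. In oxygen, prolyl hydroxylases of the EGLN family mark the HIF alpha subunit for destruction. When oxygen falls, the HIF alpha subunit is stabilized and induces glucose transporters, glycolytic enzymes, the pyruvate dehydrogenase kinases and genes of angiogenesis, mitophagy and pH control. The control of HIF1A is mainly at the protein level, so its mRNA does not report HIF activity. AZA and decitabine are cytidine analogs that trap DNA methyltransferases once built into DNA. Decitabine is the deoxyribonucleoside, whereas AZA is a ribonucleoside that also enters RNA.

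HIF binds a core written ACGTG or GCGTG, and MYC binds the E-box CACGTG, which contains ACGTG on both strands. These letters were searched on both strands of the RefSeq promoter windows (GRCh38.p14, 250 bases before to 50 after a start), which matched 33 of the 39 genes by symbol. ACGTG was present in at least 1 window of 21 of the 33 (63.6%), against 32.5% of the 9199 genes with a window and a mean of at least 1 CPM, and in 21.4% of all 35116 windows. The share was 68.8% of the 16 enzymes and 62.5% of the 8 HIF targets with a window. For GCGTG it was 60.6% of the 33 against 58.4% of the 9199 genes and 36.5% of all windows, and for CACGTG 24.2% against 12.8% and 7.26%. A match is a description of the letters and not a bound site. The 250 bases before the start are shown for 6 members whose levels are followed below, 5 enzymes and the HIF target P4HA1, so that the position of the letters can be seen. Each is printed on the strand of the gene, 5′ to 3′, with ACGTG or its complement CACGT in capitals (where they overlap, the run CACGTG is the E-box). Where several starts are listed, the window with the most matches was taken.
LDHA: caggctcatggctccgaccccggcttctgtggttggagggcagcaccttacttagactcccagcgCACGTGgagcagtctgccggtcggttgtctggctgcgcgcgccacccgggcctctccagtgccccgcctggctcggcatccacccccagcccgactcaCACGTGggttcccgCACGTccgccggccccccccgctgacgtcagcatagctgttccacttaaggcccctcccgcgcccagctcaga
ALDOC: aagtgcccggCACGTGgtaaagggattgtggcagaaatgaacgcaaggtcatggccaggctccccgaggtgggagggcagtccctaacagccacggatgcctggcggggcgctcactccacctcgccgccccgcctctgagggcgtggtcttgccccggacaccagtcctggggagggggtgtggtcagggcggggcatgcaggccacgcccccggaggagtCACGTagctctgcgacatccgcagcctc
PGK1: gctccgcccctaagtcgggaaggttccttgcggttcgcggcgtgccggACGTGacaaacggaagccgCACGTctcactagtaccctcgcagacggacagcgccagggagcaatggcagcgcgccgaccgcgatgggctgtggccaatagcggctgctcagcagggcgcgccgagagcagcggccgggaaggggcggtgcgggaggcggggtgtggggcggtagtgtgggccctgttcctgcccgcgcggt
ALDOA: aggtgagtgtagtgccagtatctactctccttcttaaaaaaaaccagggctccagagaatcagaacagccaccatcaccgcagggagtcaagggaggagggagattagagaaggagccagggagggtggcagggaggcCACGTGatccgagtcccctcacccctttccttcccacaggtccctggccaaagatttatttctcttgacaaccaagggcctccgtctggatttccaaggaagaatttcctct
GAPDH: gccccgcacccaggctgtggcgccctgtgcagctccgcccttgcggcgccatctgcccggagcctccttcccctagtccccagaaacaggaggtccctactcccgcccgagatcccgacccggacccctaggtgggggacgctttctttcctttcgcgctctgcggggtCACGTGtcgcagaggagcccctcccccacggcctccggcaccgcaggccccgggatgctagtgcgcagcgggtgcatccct
P4HA1: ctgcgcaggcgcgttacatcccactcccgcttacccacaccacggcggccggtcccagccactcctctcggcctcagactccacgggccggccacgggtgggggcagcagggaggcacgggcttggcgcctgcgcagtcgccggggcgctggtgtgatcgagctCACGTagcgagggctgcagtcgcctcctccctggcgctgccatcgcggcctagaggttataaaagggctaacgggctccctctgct
The windows lie at LDHA chr11:18394313-18394562 (forward strand), ALDOC chr17:28576896-28577145 (reverse strand), PGK1 chrX:78103998-78104247 (forward strand), ALDOA chr16:30064247-30064496 (forward strand), GAPDH chr12:6535014-6535263 (forward strand) and P4HA1 chr10:73096867-73097116 (reverse strand). LDHA, whose enzyme reduces pyruvate to lactate, held 5 matches, among them the E-box at 2 places, and ALDOC held 3. PGK1 held 2 matches and no E-box. ALDOA and GAPDH held 1 E-box each, which counts as 2 matches, and P4HA1 held 1 match. These coordinates are of another build than the count files (GRCh37.p2), and no count was read by position.

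The labelled cell type was checked first. Over all libraries of a line, 12 of 15 T-cell markers reached 1 CPM in HH, 15 in PF382 and 9 in TLOm1, with summed levels of 1482 to 1877, 2311 to 3139.7 and 1287 to 1648 CPM. CD3D and CD3G, subunits of the T-cell receptor complex, stayed under 1 CPM in TLOm1, and so did LCK in HH. Summed B-cell markers reached at most 27.4 CPM and myeloid markers at most 8.73 CPM. Epithelial or stromal markers summed to 0.678 to 4.02 CPM in HH, 19.0 to 71.6 CPM in PF382 and 76.8 to 217 CPM in TLOm1, led there by KRT8, CDH1 and PECAM1. In bulk samples, fewer cells of a type and less RNA per cell cannot be told apart.

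The 2 untreated libraries of a line were not interchangeable for these genes. In PF382 the 2 lay far apart. BNIP3, a mitophagy receptor and HIF target, was at 107 CPM in that of the AZA set and at 24.0 CPM in that of the decitabine set. PFKFB3, which makes the activator of phosphofructokinase, was at 109.8 against 16.9 CPM, and its relative PFKFB4 at 50.1 against 6.65 CPM. The AZA-set library was also the higher one for ANKZF1 (137 against 45.8 CPM) and NDRG1 (67.99 against 27.4 CPM). ADM, listed at 0 in the other untreated PF382 library, was at 2.09 CPM. Of 35 members with at least 1 CPM, 33, 35 and 35 lay below this library in PF382 cells at 125, 250 and 500 nM AZA, and 16, 20 and 25 lay below the other one. In HH the AZA-set library was higher too for HK2 (141 against 60.6 CPM), KDM3A (133 against 54.7 CPM) and PFKFB4 (90.4 against 32.2 CPM). Among the 35 members, ALDOC, SLC16A3, PDK3, HIF1A and BNIP3L went the other way in HH. Which untreated library of a line is the unusual one cannot be told. The results are therefore also given against the untreated library of the other set, and dose slopes, which use treated libraries alone, are given beside effects.

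Over the 3 lines, 7 of 35 tested members differed between the untreated sets (edgeR quasi-likelihood F test, Benjamini-Hochberg adjusted over all genes), against a background of 10.6% of all genes. HIF1A, the oxygen-regulated HIF subunit, was the 1 member higher in the decitabine set, by 0.52 ± 0.087 on the log2 scale (adjusted p = 0.0104). Here and below, log2 differences and slopes are given ± SE. Its untreated levels, AZA set first, were 94.8 and 141 CPM in HH, 108 and 156 CPM in PF382 and 55.9 and 81.9 CPM in TLOm1. Lower in the decitabine set were the phosphofructokinases PFKM (-0.44), PFKL (-0.66) and PFKP (-0.66), the hexokinase HK1 (-0.50), the enolase ENO2 (-0.53) and the glucose transporter SLC2A3 (-0.95), with adjusted p from 0.0151 to 0.0382. BNIP3 (adjusted p = 0.695) and PFKFB3 (adjusted p = 0.467) did not pass over the lines. Without TLOm1 the count was 25 of 35, where 12.6% of all genes differed. Set and drug cannot be told apart in any comparison between AZA and decitabine libraries.

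Between the lines, 22 of 35 members differed in the untreated libraries, among them 13 of 16 enzymes and 3 of 9 HIF targets. These shares do not exceed that over all genes, 82.9%, so the levels are given as a description. PFKM, the muscle-type phosphofructokinase, had the smallest p of the members and was highest in TLOm1 (77.3 and 58.6 CPM in HH, 120.1 and 89.5 CPM in PF382 and 218 and 162 CPM in TLOm1, AZA set first). LDHB, the lactate dehydrogenase of oxidative tissues, followed the same order at 525 and 460.3 CPM in HH, 883 and 889 CPM in PF382 and 1363 and 1124 CPM in TLOm1. PFKL, the liver-type isoform, was lowest in PF382, at 350.1 and 256 CPM in HH, 122 and 61.0 CPM in PF382 and 279 and 202 CPM in TLOm1, which is a difference of -1.97 ± 0.16 from HH on the log2 scale (adjusted p = 2.17e-06). ALDOA, the main aldolase, was highest in PF382, at 1160.2 and 965 CPM in HH, 2293 and 1589.5 CPM in PF382 and 867 and 798 CPM in TLOm1. HIF1A was lower in TLOm1 than in HH, with a log2 difference of -0.80 ± 0.11 (adjusted p = 7.67e-05), while HH and PF382 did not differ beyond their spread (-0.031 ± 0.11, adjusted p = 0.814).

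Per kilobase of exon, GAPDH was the highest member in every line, with mean untreated levels of 2502, 2595 and 3330.0 CPM per kb for HH, PF382 and TLOm1. ENO1, the main enolase, stood at 1877, 1065 and 1378 CPM per kb in the same order. A lactate exporter and a flux regulator were low in HH. SLC16A3, which encodes the exporter MCT4, was at 0.206 and 0.348 CPM in HH, 15.1 and 2.02 CPM in PF382 and 27.1 and 32.3 CPM in TLOm1, so that untreated HH cells were near the counting floor. PFKFB3 was at 0.987 and 0.248 CPM in HH, 109.8 and 16.9 CPM in PF382 and 5.40 and 7.13 CPM in TLOm1, and HH again held almost none. ALDOC, the brain-type aldolase, was the reverse, at 385 and 493 CPM in HH, 95.4 and 33.5 CPM in PF382 and 19.6 and 44.7 CPM in TLOm1. The difference between lines did not pass for it (adjusted p = 0.0601), and its 2 untreated libraries lay far apart in PF382 and TLOm1. NDRG1, a stress-responsive HIF target, was at 365 and 293 CPM in HH, 67.99 and 27.4 CPM in PF382 and 103 and 108 CPM in TLOm1. Its HH libraries lay above the others and its PF382 libraries below, without overlap.

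**Figure D1:**
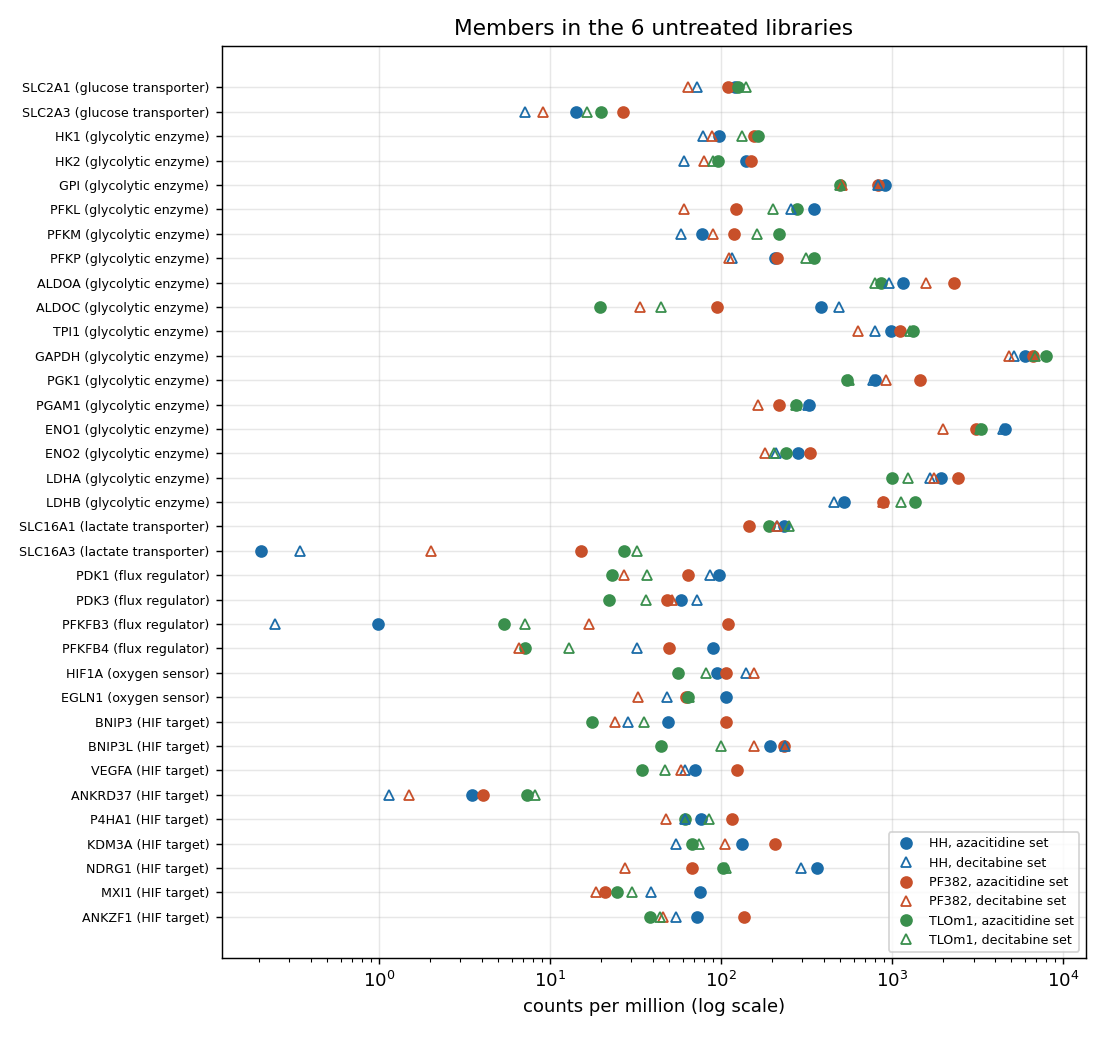
Levels of the 35 members with a mean of at least 1 CPM in the 6 untreated libraries, in CPM on a log axis, with filled circles for the AZA set, open triangles for the decitabine set and a color for each line. SLC16A3 and PFKFB3 lie near 0 in HH, and the filled PF382 circles for BNIP3, PFKFB3 and PFKFB4 lie well to the right of the open PF382 triangles.

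Glycolytic enzymes fell with AZA dose in every line. The 16 enzymes together took 1.87%, 1.75%, 1.56% and 1.12% of all counts in untreated cells and at the low, middle and high dose of HH, 2.02%, 1.28%, 1.18% and 0.950% in PF382 and 1.86%, 1.73%, 1.52% and 1.23% in TLOm1. The share was lower at each step. With all 9 AZA libraries set against their 3 untreated libraries, 0 of 37 tested members passed the adjusted threshold of 0.05 in edgeR (1.17% of all genes did). At an unadjusted p under 0.05, 21 members passed, all 21 lower, where 8.54% of all genes were lower at that level. The fitted change was below 0 for 36 of 37 members and 47.4% of all genes, with P4HA2 as the exception. The median over members was -0.47 on the log2 scale and 0.014 over all genes, and over the 16 enzymes, all below 0, it was -0.50. DESeq2 on the same libraries called 6 members, all lower (PFKM, TPI1, GAPDH, PGK1, ENO1 and LDHB), and limma voom called PFKM. Of all genes, DESeq2 called 6.89% and limma voom 2.76%. With both untreated libraries of each line as controls, edgeR called 10 of 35 members, all lower (the enzymes ALDOC, PGK1, PGAM1, ENO1, LDHA and LDHB with PDK1, PDK3, HIF1A and BNIP3L), where 20.5% of all genes passed. Of 14 tested markers of other cell types, 2 rose under AZA, among them KRT8 (2.82 ± 0.39), with a highest level of 104 CPM in any library. Their part in the result was not tested.

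The dose slope was fitted on the 9 AZA libraries alone and so uses no untreated library. Per doubling of the AZA dose, 23 of 36 tested members fell and 0 rose at the adjusted threshold, against 6.17% of all genes that fell and 7.55% that rose. The 23 were 13 of 16 enzymes, 5 of 10 HIF targets, 3 of 4 flux regulators, SLC2A3 and the lactate transporter SLC16A1. The median slope was -0.27 for the enzymes and -0.28 for the HIF targets, beside 0.0088 over all genes tested. HK1, PFKL and PFKP were the enzymes that did not pass. Of 13 tested markers of other cell types, 2 rose with dose, among them KRT18 (0.81 ± 0.20, adjusted p = 0.0383, at most 22.0 CPM in any library), and their part was not tested. Leaving out TLOm1 at 125 nM, or all of TLOm1, gave 15 members, all lower, where 6.09% and 6.26% of all genes were called in either direction.

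**Figure D2:**
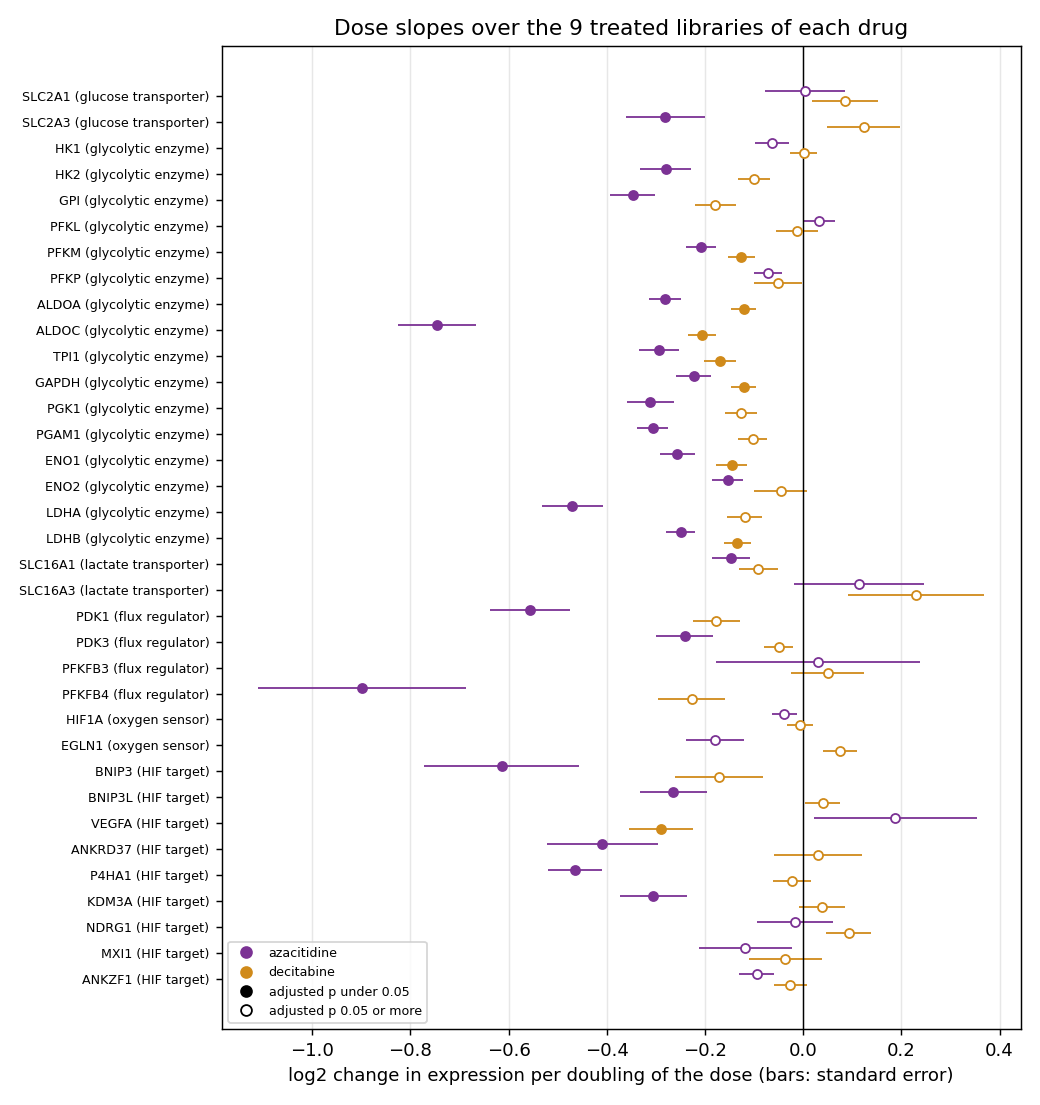
Change in expression per doubling of the dose (log2, horizontal axis) for the 35 members with a mean of at least 1 CPM, fitted over the 9 AZA (purple) and the 9 decitabine (orange) libraries with cell line as a block. Bars are standard errors and filled points passed the adjusted threshold of 0.05, 23 of the AZA points and 8 of the decitabine points, all left of 0.

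Values for single libraries below are in CPM in the order untreated, low, middle and high dose. LDHA gave 1927, 1887, 1620.1 and 819 CPM in HH, 2421, 1125, 934 and 598 CPM in PF382 and 1005, 1047, 799 and 582 CPM in TLOm1 under AZA. The highest dose was the lowest library in each line, and the slope was -0.47 ± 0.062 per doubling (adjusted p = 0.00276). PGAM1, the phosphoglycerate mutase, gave 329.5, 328, 281 and 208 CPM in HH, 219, 154, 133 and 104 CPM in PF382 and 275, 267, 219 and 166 CPM in TLOm1. It had the smallest p of all members, with a slope of -0.31 ± 0.032 and adjusted p = 0.000829, and all 9 treated libraries lay below their untreated library. ALDOA was at 1160.2, 1221, 1079 and 784 CPM in HH, 2293, 1362, 1208 and 974 CPM in PF382 and 867, 849.7, 717 and 555 CPM in TLOm1. In HH the low dose stood above untreated and the high dose below it, and the slope over the lines was -0.28 ± 0.033 (adjusted p = 0.00123). ALDOC gave 385, 315, 232 and 98.2 CPM in HH, 95.4, 22.9, 16.3 and 8.46 CPM in PF382 and 19.6, 19.7, 10.3 and 6.11 CPM in TLOm1. Its slope of -0.75 ± 0.079 (adjusted p = 0.00139) was the steepest of the enzymes, and in PF382 the low dose was already far below the untreated level of its set and below that of the other set (33.5 CPM).

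The enzymes of the middle and end of the pathway were lowest at the highest dose. GPI, which isomerizes glucose 6-phosphate, gave 909, 934, 839 and 533 CPM in HH, 827, 421, 369.9 and 256 CPM in PF382 and 497, 480.0, 406 and 305 CPM in TLOm1, with a slope of -0.35 ± 0.046. Triosephosphate isomerase TPI1 gave 986, 874, 765 and 614 CPM in HH, 1118, 609.9, 524 and 356 CPM in PF382 and 1325, 1301, 1129.5 and 884 CPM in TLOm1. PGK1, an ATP-making kinase, gave 798, 764, 639 and 389 CPM in HH, 1458, 644, 571 and 447 CPM in PF382 and 547, 551, 483 and 412 CPM in TLOm1. GPI, TPI1 and PGK1 each had their lowest library of the set at the highest dose in every line, and the slopes of TPI1 (-0.29 ± 0.040) and PGK1 (-0.31 ± 0.048) passed as well. GAPDH was at 5972, 5246, 4579.5 and 3365 CPM in HH, 6719, 5224, 5053 and 4348 CPM in PF382 and 7986, 7257, 6542 and 5317 CPM in TLOm1. ENO1 was at 4566, 4231, 3960.4 and 2956 CPM in HH, 3121, 1707, 1520.5 and 1136 CPM in PF382 and 3328, 3029, 2593 and 2152 CPM in TLOm1. LDHB was at 525, 488, 420.2 and 339 CPM in HH, 883, 768, 704 and 569 CPM in PF382 and 1363, 1129.9, 952 and 756 CPM in TLOm1. In all 3 genes every treated library lay below its untreated library and each step of dose was lower than the one before. Their slopes of -0.22 ± 0.035, -0.26 ± 0.036 and -0.25 ± 0.029 passed.

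All 9 AZA libraries lay below their own untreated library for 5 members (PFKM, GAPDH, PGAM1, ENO1 and LDHB, all enzymes) of 35 and above it for 0, where 6.32% and 8.1% of all genes with at least 1 CPM were. Against both untreated libraries of the line, the count was 1 of 35, ENO1 (background 2.42%). PFKM gave 77.3, 70.4, 62.1 and 54.0 CPM in HH, 120.1, 100.5, 93.5 and 73.3 CPM in PF382 and 218, 158, 130.4 and 116 CPM in TLOm1. It had the smallest p of the members in the comparison with untreated libraries, at -0.49 ± 0.12 (adjusted p = 0.075).

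At the hexokinase and phosphofructokinase steps HK2 and PFKM fell with dose, and the isoforms HK1, PFKL and PFKP had no called slope. HK1, a hexokinase, gave 97.8, 112, 123 and 115 CPM in HH, 156, 103, 98.9 and 87.1 CPM in PF382 and 165, 146, 133 and 131 CPM in TLOm1. It lay above untreated at every dose in HH and below it at every dose in PF382 and TLOm1. PFKL gave 350.1, 382, 415 and 388 CPM in HH, 122, 79.7, 82.6 and 91.1 CPM in PF382 and 279, 319, 367 and 330.3 CPM in TLOm1, above untreated at every dose in HH and TLOm1 and below it in PF382. The slopes of HK1 (-0.063 ± 0.034, adjusted p = 0.256) and PFKL (0.033 ± 0.033, adjusted p = 0.551) did not pass. PFKP, the platelet-type phosphofructokinase, ranged over 78.0 to 351 CPM in the 24 libraries, and its slope of -0.072 ± 0.028 missed as well (adjusted p = 0.122). HK2, the inducible hexokinase, ranged over 58.1 to 151 CPM and fell with a slope of -0.28 ± 0.052 (adjusted p = 0.00924). ENO2, the neuronal enolase, ranged over 150.3 to 331 CPM and fell with one of -0.15 ± 0.032 (adjusted p = 0.0138).

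The 4 flux regulators had the lowest median of the groups in the comparison with untreated libraries, -1.12. In the fit of all 24 libraries it was -0.74 in HH, -2.10 in PF382 and -0.18 in TLOm1. The PF382 value rests on the untreated library of the AZA set, where PFKFB4 was at 50.1 CPM against 6.65 CPM in that of the decitabine set. PFKFB4 gave 90.4, 77.5, 57.7 and 13.3 CPM in HH, 50.1, 9.24, 7.18 and 5.82 CPM in PF382 and 7.19, 12.3, 3.98 and 1.95 CPM in TLOm1, with a slope of -0.90 ± 0.21 per doubling (adjusted p = 0.0346). PDK1, a pyruvate dehydrogenase kinase and a HIF target itself, ranged over 10.5 to 97.9 CPM and had a slope of -0.56 ± 0.081 (adjusted p = 0.00411). PDK3, a relative, ranged over 14.1 to 72.8 CPM with a slope of -0.24 ± 0.058, which passed. PFKFB3 gave 0.987, 0.247, 0.615 and 0.323 CPM in HH, 109.8, 34.5, 25.1 and 18.0 CPM in PF382 and 5.40, 4.89, 6.16 and 11.7 CPM in TLOm1. It was lower at each step in PF382 and highest at 500 nM in TLOm1, and its slope over the lines was 0.030 ± 0.21. All 3 AZA levels of PFKFB3 in PF382 lay above the untreated level of the other set, 16.9 CPM.

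The transporters split. SLC2A1, the glucose transporter GLUT1, gave 121, 133, 126 and 123 CPM in HH, 111, 76.2, 61.1 and 54.5 CPM in PF382 and 126, 187, 225 and 293 CPM in TLOm1 under AZA. It was higher at each step in TLOm1 and lower at each step in PF382, and the slope over the lines was 0.0035 ± 0.081. A test of the slope by line, added after these values were seen, gave 0.31 ± 0.040 in TLOm1, -0.26 ± 0.044 in PF382 and -0.047 ± 0.036 in HH, and the lines differed (adjusted p = 6.19e-06, where 15.7% of all genes passed). SLC2A3, or GLUT3, gave 14.3, 13.7, 8.71 and 5.89 CPM in HH, 26.8, 14.6, 13.2 and 14.6 CPM in PF382 and 19.99, 19.6, 18.0 and 13.8 CPM in TLOm1. Its slope was -0.28 ± 0.081 (adjusted p = 0.0474). SLC16A3 gave 0.206, 0.989, 2.77 and 3.55 CPM in HH, 15.1, 4.50, 3.91 and 3.19 CPM in PF382 and 27.1, 37.5, 41.4 and 40.5 CPM in TLOm1. It was higher with each dose in HH, from near the counting floor up, and its slope over the lines, 0.11 ± 0.13, did not pass (adjusted p = 0.608). SLC16A1, the MCT1 transporter, ranged over 119 to 256 CPM and fell with dose, with a slope of -0.15 ± 0.038.

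The oxygen sensing genes HIF1A and EGLN1 had no called change against the untreated libraries of the AZA set and no called slope over the lines. HIF1A gave 94.8, 84.7, 84.4 and 78.8 CPM in HH, 108, 112, 105 and 111 CPM in PF382 and 55.9, 58.0, 55.3 and 55.3 CPM in TLOm1, with a change of -0.071 ± 0.057 (adjusted p = 0.501) and a slope of -0.038 ± 0.026 (adjusted p = 0.354). It was called lower with both untreated libraries as controls, and it is the member that was higher in the untreated libraries of the decitabine set. EGLN1, the main HIF prolyl hydroxylase, ranged over 32.6 to 125 CPM and had a slope of -0.18 ± 0.059 over the lines (adjusted p = 0.0746). In HH alone it fell with dose, with -0.34 ± 0.049 (adjusted p = 8.81e-05). EGLN3, a hydroxylase that HIF induces, gave 0, 0, 0 and 0 CPM in HH, 1.13, 0.548, 0.382 and 0.399 CPM in PF382 and 0, 0, 0.0410 and 0 CPM in TLOm1, so that only PF382 had levels above 0.1 CPM, and it had too few counts to be tested over the lines. Of the HIF targets, P4HA1, a collagen prolyl hydroxylase, gave 76.4, 86.2, 75.2 and 39.7 CPM in HH, 116, 57.4, 43.2 and 31.2 CPM in PF382 and 61.9, 65.4, 47.8 and 34.0 CPM in TLOm1. Its slope of -0.47 ± 0.055 (adjusted p = 0.0014) stands beside -0.47 for LDHA. BNIP3 gave 49.2, 60.7, 54.5 and 20.2 CPM in HH, 107, 24.1, 14.5 and 5.62 CPM in PF382 and 17.6, 22.9, 17.4 and 16.9 CPM in TLOm1, with a slope of -0.61 ± 0.16 (adjusted p = 0.0422). Its lowest libraries were the treated PF382 cells at the middle and high dose. BNIP3L, another mitophagy receptor (42.3 to 246 CPM), the histone demethylase KDM3A (46.4 to 209 CPM) and ANKRD37 (1.14 to 8.14 CPM) also fell, with slopes of -0.26, -0.30 and -0.41.

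Of the other HIF targets, VEGFA, NDRG1, MXI1, ANKZF1 and P4HA2 had no called slope over the lines, and ADM and CA9 had too few counts to be tested there. MXI1, an antagonist of MYC, ranged over 15.3 to 76.0 CPM, P4HA2, a relative of P4HA1, over 0 to 1.32 CPM and ADM, which encodes adrenomedullin, over 0 to 2.09 CPM. VEGFA, the angiogenic growth factor, gave 70.4, 58.2, 48.8 and 36.4 CPM in HH, 124, 53.8, 55.8 and 128 CPM in PF382 and 34.7, 31.9, 34.7 and 49.8 CPM in TLOm1. It was lower at each step in HH, whereas the 500 nM libraries of PF382 and TLOm1 were the highest treated ones of their lines. NDRG1 gave 365, 331, 333 and 248 CPM in HH, 67.99, 28.6, 25.1 and 24.8 CPM in PF382 and 103, 135, 166 and 200.1 CPM in TLOm1. It was higher at each step in TLOm1 and lay below its own untreated library in HH and PF382. ANKZF1, a ribosome quality control factor, gave 72.5, 74.9, 70.7 and 57.0 CPM in HH, 137, 66.3, 62.9 and 65.2 CPM in PF382 and 38.3, 47.2, 43.7 and 43.5 CPM in TLOm1. Its 3 AZA levels in PF382 lay below untreated of the AZA set and above that of the decitabine set (45.8 CPM). CA9, the hypoxia-induced carbonic anhydrase, was low throughout, at 0.165, 0.495, 0.708 and 0.0403 CPM in HH, 1.57, 0.313, 0.255 and 0.120 CPM in PF382 and 0, 0.0411, 0.0410 and 0 CPM in TLOm1.

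**Figure D3:**
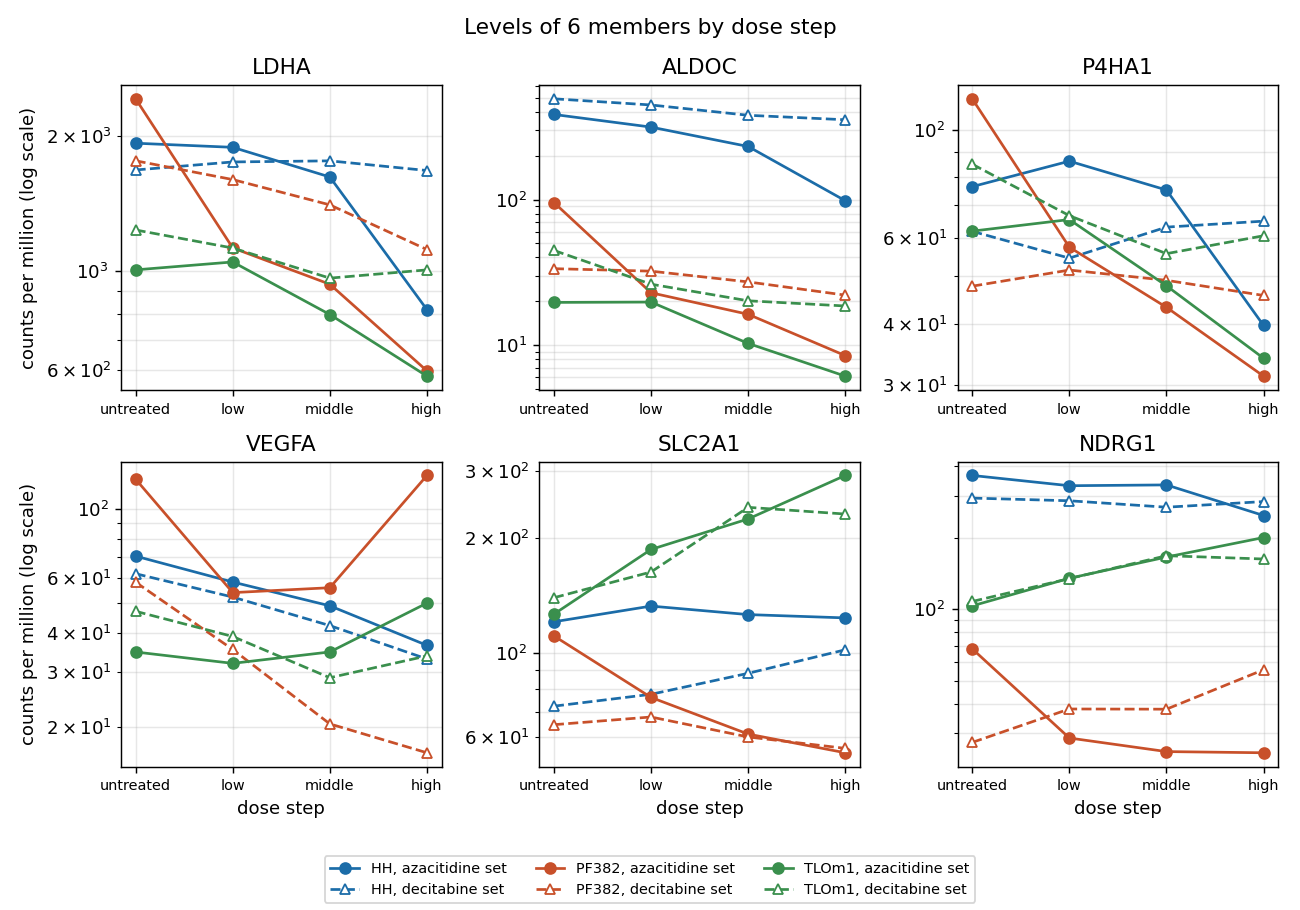
Levels of 6 members by dose step in CPM on a log axis, each panel with the AZA set (solid, filled circles) and the decitabine set (dashed, open triangles) of HH, PF382 and TLOm1. Dose steps stand for different concentrations of the drugs. LDHA and ALDOC are lowest at the highest AZA dose in each line, and SLC2A1 and NDRG1 lie above untreated at every dose of both drugs in TLOm1.

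Read library by library, the enzyme median was lower at each higher AZA dose in every line, while the place of the HIF targets depended on the line and on the untreated library. The median log2 fold of the 16 enzymes against the untreated library of the same set was -0.053, -0.24 and -0.65 in HH, -0.71, -0.85 and -1.11 in PF382 and 0.0051, -0.28 and -0.64 in TLOm1 from low to high dose. For the 9 HIF targets with at least 1 CPM it was -0.12, -0.13 and -0.96 in HH, -1.07, -1.18 and -1.48 in PF382 and 0.21, -0.025 and -0.060 in TLOm1. In TLOm1 the enzymes thus reached a lower median than the HIF targets at each dose, and in PF382 the HIF targets were the lower group. Against the untreated library of the other set, the enzymes of PF382 gave -0.040, -0.25 and -0.66 and the HIF targets 0.10, -0.083 and -0.14, so that the order of the groups turned. In HH the values were 0.16, -0.020 and -0.42 for the enzymes and 0.47, 0.37 and -0.27 for the HIF targets. In TLOm1 the order turned as well, with 0.087, -0.15 and -0.50 for the enzymes and -0.31, -0.55 and -0.66 for the HIF targets. The enzyme medians descended from low to high dose against either library. The median over all genes with at least 1 CPM lay between -0.017 and 0.084 in these comparisons.

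**Figure D4:**
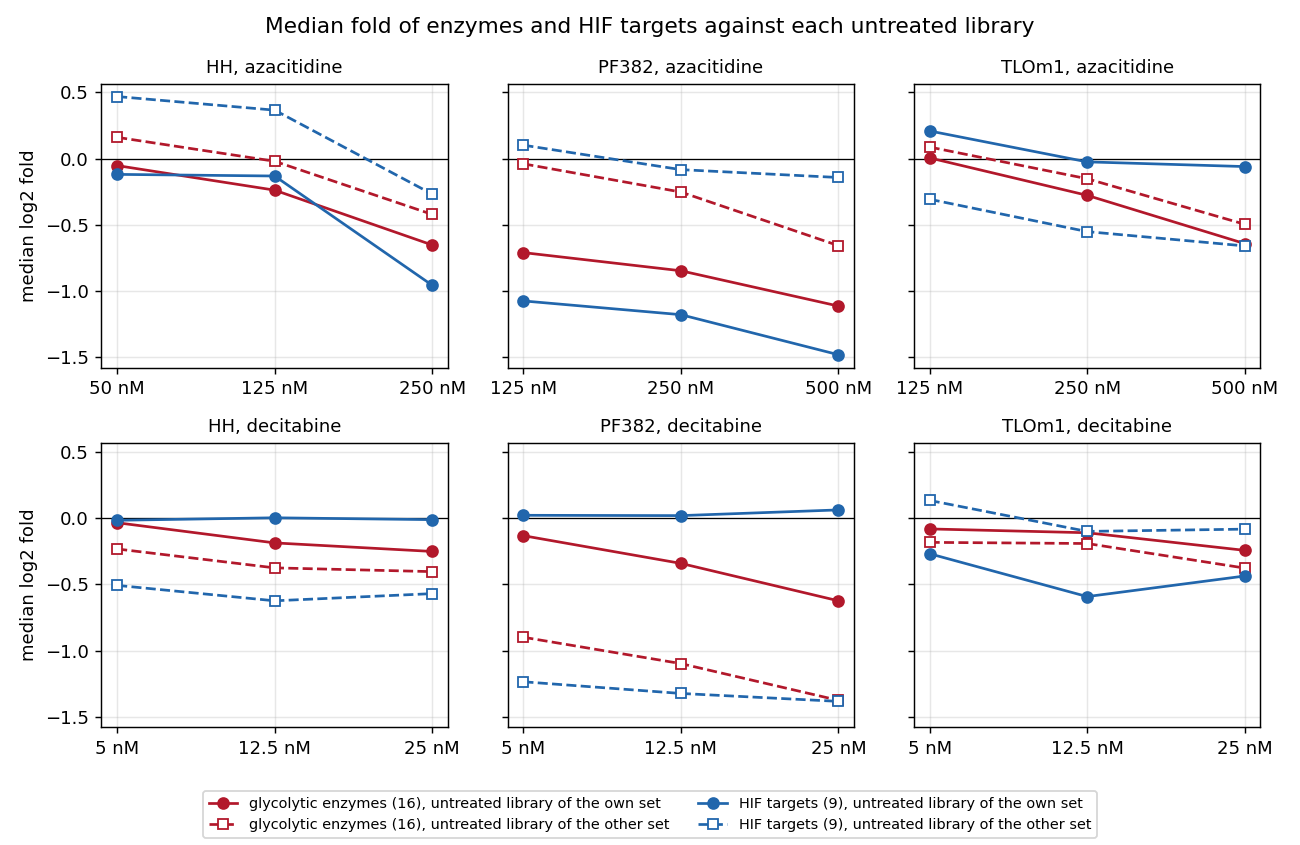
Median log2 fold of 16 glycolytic enzymes (red) and 9 HIF targets (blue) in each treated library, by dose, against the untreated library of the same set (solid, filled) and of the other set (dashed, open). The red lines descend with dose in every panel, and the blue lines of PF382 shift far with the choice of untreated library.

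Effects in single lines were compared in a fit of all 24 libraries. The AZA effect differed between lines for 3 of 38 members (background 0.0969% of genes): ANKZF1 (adjusted p = 0.00981), NDRG1 (adjusted p = 0.0268) and HK1 (adjusted p = 0.0497). ANKZF1 was at -1.12 ± 0.12 in PF382, -0.11 ± 0.13 in HH and 0.24 ± 0.13 in TLOm1. For NDRG1 the effects were -1.41 ± 0.21, -0.27 ± 0.21 and 0.71 ± 0.22, and for HK1 -0.73 ± 0.11, 0.25 ± 0.11 and -0.26 ± 0.11, in the same order. SLC16A3 came next at adjusted p = 0.0538. In PF382 alone 13 of 38 members fell (background 0.545%), 6 enzymes and 4 HIF targets among them, and in HH and TLOm1 0 passed. Of all genes, 0.454% fell and 0.908% rose in TLOm1. At an unadjusted p under 0.05 there were 5 members in HH and 6 in TLOm1, in both directions. The share of all genes at that level is not given, so these counts are a description. The PF382 values rest on the untreated PF382 library of the AZA set. With both untreated libraries of each line as controls, an alternative chosen after the data had been seen, 0 of 39 members passed the test between lines. Of all genes, 0.707% passed it there.

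Slopes by line, which use no untreated library, were added after the data had been seen. Under AZA, 19 of 36 members fell with dose in HH, 10 in PF382 and 15 in TLOm1, against 8.27%, 4.51% and 13.1% of all genes. Of the 16 enzymes 11, 7 and 11 fell and 0 rose. The HIF targets that fell were 4 in HH (P4HA1, MXI1, ANKZF1 and NDRG1), 1 in PF382 (ANKRD37) and 2 in TLOm1 (P4HA1 and ANKRD37) of 10 tested. SLC16A3 rose in HH, and SLC2A1, PFKFB3 and NDRG1 rose in TLOm1, where 9.36% and 14.2% of all genes rose. The slopes differed between lines for 8 of 36 members, where 15.7% of all genes did. Of the 8, 1 was an enzyme, HK2 (adjusted p = 0.0292). PFKFB3 had slopes of 0.64 ± 0.11 in TLOm1 and -0.48 ± 0.089 in PF382, and NDRG1 of 0.27 ± 0.056 in TLOm1 and -0.17 ± 0.048 in HH.

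Under decitabine 7 of the 16 enzymes fell with dose. The enzymes together took 1.67%, 1.62%, 1.45% and 1.40% of all counts in HH, 1.39%, 1.30%, 1.12% and 0.966% in PF382 and 1.70%, 1.62%, 1.59% and 1.49% in TLOm1, from untreated to 25 nM, lower at each step. Against its untreated libraries, 0 of 38 tested members passed the adjusted threshold in edgeR (0% of all genes did). DESeq2 called 3 members, all lower (ALDOC, PFKFB4 and VEGFA), and 2.93% of all genes, and limma voom called 0 members and 0.0755%. With both untreated libraries of each line as controls, 11 of 36 passed in edgeR, all lower (9 enzymes, PFKFB4 and VEGFA), where 12.7% of all genes did. At an unadjusted p under 0.05, 10 were lower and 2, CA9 and NDRG1, were higher, where 6.13% and 9.55% of all genes were. The enzymes were fitted lower in 15 of 16 cases (44.4% of all genes) with a median of -0.22, and the HIF targets in 7 of 11 with a median of -0.059, beside 0.024 over all genes. Per doubling of the dose 8 of 38 members fell and 0 rose, against 0.791% of all genes that fell and 2.18% that rose. They were 7 enzymes (ALDOC, TPI1, LDHB, ALDOA, GAPDH, PFKM and ENO1) and VEGFA. Of 12 tested markers of other cell types, 1, PECAM1, rose with dose (0.23 ± 0.053, adjusted p = 0.033), and KRT8 had a slope of 0.65 ± 0.14 (adjusted p = 0.052). Their part in the result was not tested. The count of 8 members, where 2.97% of all genes were called, depended on single libraries. It was 4, 5 and 4 without the HH library at 5, 12.5 and 25 nM (1.83%, 1.93% and 1.82% of all genes). Without that of PF382 it was 3, 4 and 5 (1.79%, 1.48% and 1.66%). Without that of TLOm1 it was 10, 8 and 10 (4.72%, 2.56% and 3.99%). Leaving out all of HH, PF382 or TLOm1 gave 1, 4 and 9 (0.805%, 1.87% and 4.22%).

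ALDOC had the smallest p of the members for the slope, at 493, 447, 379.8 and 354 CPM in HH, 33.5, 32.2, 27.2 and 22.0 CPM in PF382 and 44.7, 26.2, 20.1 and 18.5 CPM in TLOm1. Every treated library lay below its untreated one, and the slope was -0.21 ± 0.029 per doubling (adjusted p = 0.002). TPI1 gave 800.4, 726, 654 and 590.3 CPM in HH, 633, 578, 471 and 384 CPM in PF382 and 1278, 1185, 1168 and 1024 CPM in TLOm1, with a slope of -0.17 ± 0.032 (adjusted p = 0.0134). LDHB was at 460.3, 446, 415 and 366 CPM in HH, 889, 801, 715 and 598 CPM in PF382 and 1124, 989.9, 934 and 894 CPM in TLOm1. In TPI1 and LDHB each step of dose was lower than the one before in all 3 lines. ALDOA gave 965, 1018, 905 and 915 CPM in HH, 1589.5, 1388, 1169 and 1059 CPM in PF382 and 798, 795, 745 and 695 CPM in TLOm1. GAPDH was at 5157, 4895, 4091 and 3912 CPM in HH, 4823, 4792, 4235 and 3787 CPM in PF382 and 6825, 6684, 6668 and 6328 CPM in TLOm1. PFKM gave 58.6, 59.0, 55.6 and 51.1 CPM in HH, 89.5, 79.6, 73.2 and 62.6 CPM in PF382 and 162, 153, 138 and 129 CPM in TLOm1. ALDOA was above untreated at 5 nM in HH, and so was PFKM by its CPM, though not after TMM scaling. GAPDH was lower at each step in all lines, and for all 3 genes the 25 nM library was below untreated in each line.

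ENO1 gave 4461, 4193, 3789 and 3742 CPM in HH, 2001, 1829.8, 1531 and 1249 CPM in PF382 and 3295, 3095, 2977 and 2672 CPM in TLOm1, lower at each step. PGK1 gave 778, 762, 671 and 629 CPM in HH, 923, 792, 674 and 573 CPM in PF382 and 565, 496, 525 and 479.5 CPM in TLOm1, and its slope of -0.13 ± 0.033 did not pass (adjusted p = 0.0568). LDHA gave 1679.7, 1750.4, 1760.3 and 1675 CPM in HH, 1761, 1599, 1404 and 1116 CPM in PF382 and 1234, 1125, 963 and 1005 CPM in TLOm1. In PF382 it was lower at each step, and in HH the 4 libraries were close together, and the slope over the lines, -0.12 ± 0.036, did not pass (adjusted p = 0.103). GPI was at 829, 859, 740.4 and 717 CPM in HH, 510.1, 441, 350.0 and 262 CPM in PF382 and 497, 475, 455 and 427 CPM in TLOm1. PGAM1 was at 324, 306, 284 and 286 CPM in HH, 166, 166, 151 and 127 CPM in PF382 and 275, 284, 258 and 255 CPM in TLOm1. Neither passed, with adjusted p of 0.0529 and 0.0746. HK1 gave 78.6, 92.9, 97.5 and 106 CPM in HH, 89.1, 84.7, 82.4 and 81.2 CPM in PF382 and 132, 133, 128 and 130.3 CPM in TLOm1. PFKL gave 256, 259, 247 and 270.0 CPM in HH, 61.0, 53.7, 43.3 and 48.6 CPM in PF382 and 202, 212, 267 and 222 CPM in TLOm1. HK1 was higher at each step in HH and lower at each step in PF382, and neither gene had a called slope. For 7 of the 16 enzymes all 9 decitabine libraries lay below their own untreated library (background 5.21%), and for 6 (PFKM, TPI1, GAPDH, PGK1, ENO1 and LDHB) they lay below both untreated libraries of the line (background 2.63%).

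Among regulators and transporters, PFKFB4 gave 32.2, 31.5, 28.3 and 18.6 CPM in HH, 6.65, 4.30, 5.15 and 4.17 CPM in PF382 and 12.9, 7.95, 5.87 and 5.46 CPM in TLOm1, with a change of -0.64 ± 0.18 against untreated (adjusted p = 0.15). PFKFB3 was at 0.248, 0.417, 0.335 and 0.298 CPM in HH, 16.9, 17.2, 16.1 and 17.6 CPM in PF382 and 7.13, 6.13, 6.54 and 8.05 CPM in TLOm1, with a slope of 0.050 ± 0.074 per doubling (adjusted p = 0.768). SLC2A1 gave 72.3, 77.7, 88.3 and 102 CPM in HH, 64.6, 67.7, 60.0 and 56.0 CPM in PF382 and 139.5, 163, 241 and 232 CPM in TLOm1. It was above untreated at every dose in TLOm1, higher at each step in HH and lowest at the high dose in PF382. The slopes by line were 0.22 ± 0.053 in TLOm1, -0.14 ± 0.058 in PF382 and 0.16 ± 0.055 in HH, and differed (adjusted p = 0.00579, background 6.1%). SLC2A3 gave 7.21, 5.21, 4.64 and 4.87 CPM in HH, 9.12, 11.9, 14.3 and 22.7 CPM in PF382 and 16.4, 16.1, 14.5 and 17.0 CPM in TLOm1, higher at each step in PF382, where its slope passed (0.37 ± 0.091). SLC16A3 was at 0.348, 0.313, 0.503 and 2.09 CPM in HH, 2.02, 2.24, 2.27 and 3.02 CPM in PF382 and 32.3, 25.3, 27.6 and 28.4 CPM in TLOm1, with its highest HH value at 25 nM.

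HIF1A gave 141, 151, 162 and 155 CPM in HH, 156, 171, 179 and 179.7 CPM in PF382 and 81.9, 82.7, 73.8 and 79.9 CPM in TLOm1, with a change of 0.071 ± 0.053 and a slope of -0.0060 ± 0.026 that did not pass. EGLN3 gave 0, 0, 0 and 0 CPM in HH, 0.326, 0.574, 0.936 and 0.720 CPM in PF382 and 0, 0, 0 and 0 CPM in TLOm1. CA9 gave 0.298, 0.417, 1.06 and 0.895 CPM in HH, 0.261, 0.631, 0.535 and 1.15 CPM in PF382 and 0, 0, 0.0336 and 0.169 CPM in TLOm1. EGLN3 was at 0 in every HH and TLOm1 library of this set, and CA9 was above untreated at every dose in HH and PF382. VEGFA was the HIF target that fell, at 61.9, 52.1, 42.2 and 33.0 CPM in HH, 58.1, 35.4, 20.4 and 16.5 CPM in PF382 and 46.9, 38.9, 28.7 and 33.7 CPM in TLOm1, with a slope of -0.29 ± 0.065 (adjusted p = 0.0457). In HH and PF382 it was lower at each step, and PF382 reached the lowest level of the set. NDRG1 gave 293, 286, 269 and 284 CPM in HH, 27.4, 37.9, 37.9 and 55.5 CPM in PF382 and 108, 134, 168 and 162 CPM in TLOm1, higher than untreated at every dose in PF382 and TLOm1. It was highest at 25 nM in PF382, where its slope passed (0.20 ± 0.061), and highest at 12.5 nM in TLOm1. P4HA1 gave 61.9, 54.5, 63.1 and 64.9 CPM in HH, 47.8, 51.5, 49.1 and 45.7 CPM in PF382 and 85.0, 66.6, 55.7 and 60.6 CPM in TLOm1. ANKZF1 gave 54.8, 54.0, 56.0 and 50.3 CPM in HH, 45.8, 44.8, 41.8 and 50.2 CPM in PF382 and 43.9, 43.9, 41.6 and 39.9 CPM in TLOm1. BNIP3 was at 28.5, 32.4, 32.5 and 32.2 CPM in HH, 24.0, 24.6, 16.7 and 10.2 CPM in PF382 and 35.7, 26.2, 22.7 and 25.5 CPM in TLOm1, lower at the 2 higher doses in PF382.

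Under decitabine the enzymes and the HIF targets stood apart in PF382. The median fold of the enzymes against the untreated library of the same set was -0.13, -0.34 and -0.62 from 5 to 25 nM, and that of the HIF targets 0.021, 0.018 and 0.061. All 16 enzymes lay below untreated at 12.5 and 25 nM, and 4 and 3 of the 9 HIF targets did. In the slopes by line, 13 of 16 enzymes fell in PF382, whereas of 11 HIF targets BNIP3 and VEGFA fell and KDM3A, BNIP3L and NDRG1 rose. The slope of BNIP3 there was -0.55 ± 0.078 per doubling and that of KDM3A, a histone demethylase, 0.22 ± 0.048. In PF382 5.24% of all genes fell and 9.9% rose. Against the untreated library of the AZA set the HIF target medians in PF382 were -1.24, -1.32 and -1.38, and those of the enzymes -0.90, -1.10 and -1.38. HH showed -0.035, -0.19 and -0.25 for the enzymes beside -0.017, 0.0018 and -0.012 for the HIF targets. With the untreated HH library of the AZA set the HIF targets were the lower group, at -0.51, -0.62 and -0.57 beside -0.23, -0.38 and -0.40 for the enzymes. TLOm1 had the reverse order, with -0.082, -0.11 and -0.24 for the enzymes and -0.27, -0.59 and -0.44 for the HIF targets. Against the untreated library of the AZA set the order in TLOm1 turned, with -0.18, -0.19 and -0.38 and 0.13, -0.10 and -0.084.

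Outside PF382, under decitabine, 5 members fell in HH (GAPDH, TPI1, ALDOC, PFKFB4 and VEGFA) and 1, ALDOC, in TLOm1, while SLC16A3 rose in HH and SLC2A1 in TLOm1. Of all genes, 1.07% and 0.223% fell in these lines. The shares of all genes that rose there are not given, so the rises of SLC16A3 and SLC2A1 are a description. The slopes differed between lines for 7 of 38 members, where 6.1% of all genes did. The 7 were led by BNIP3 (adjusted p = 0.00059) and PFKP (adjusted p = 0.00249), and included GPI, with a slope of -0.34 ± 0.043 in PF382. The decitabine effect against untreated differed between lines for 0 of 38 members in edgeR (background 0.00606%), with 3 at an unadjusted p under 0.05 (PFKL, HK1 and SLC2A3, against 8.87% of all genes), and 0 in DESeq2.

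**Figure D5:**
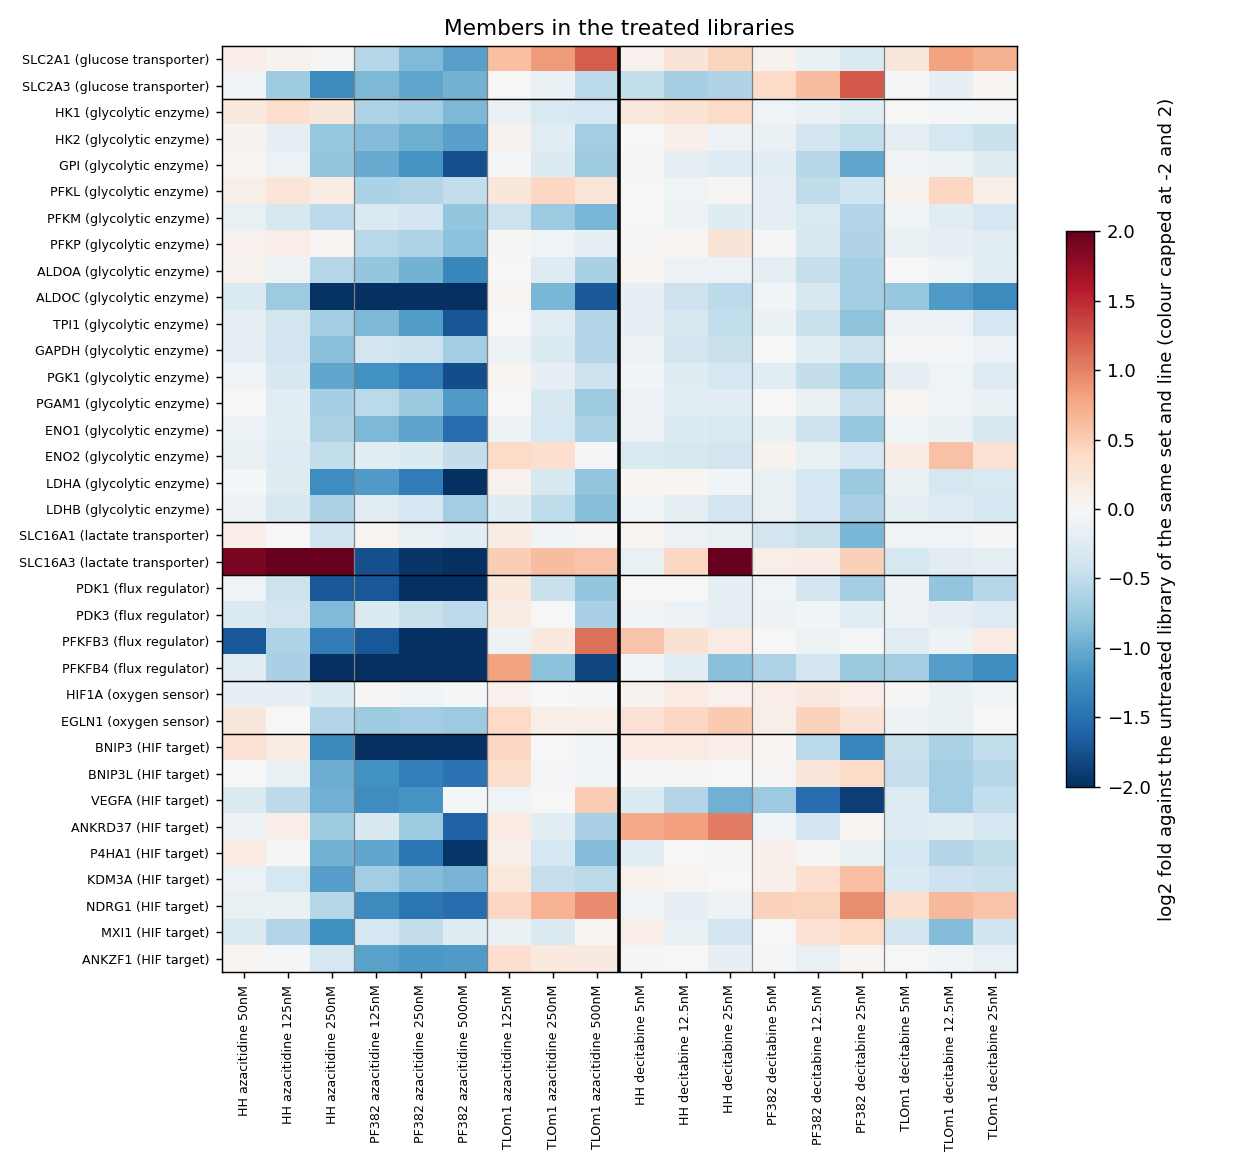
Log2 fold of the 35 members (rows, by role) in the 18 treated libraries (columns, AZA left and decitabine right of the thick line, by line and rising dose) against the untreated library of the same set and line, with color capped at -2 and 2. The PF382 AZA columns are the bluest, SLC2A1 and NDRG1 are red in TLOm1 under both drugs, and under decitabine the PF382 columns are blue for enzymes and, apart from VEGFA and BNIP3, mostly pale or red for HIF targets.

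AZA and decitabine differ in the sugar, ribose or deoxyribose, and were given at doses that do not match, so their values stand side by side. The enzyme median at the highest dose was -0.65 with 250 nM AZA and -0.25 with 25 nM decitabine in HH. It was -1.11 with 500 nM AZA and -0.62 with 25 nM decitabine in PF382, and -0.64 and -0.24 in TLOm1. No member passed the test of the AZA effect minus the decitabine effect (0 of 38 in edgeR and in DESeq2, background 0%). At an unadjusted p under 0.05 there were 4, CA9, PFKFB3, EGLN3 and NDRG1, all with the lower value under AZA (2.07% of all genes). All 4 were higher in the untreated PF382 library of the AZA set than in that of the decitabine set. The levels were 1.57 and 0.261 CPM for CA9, 109.8 and 16.9 CPM for PFKFB3, 1.13 and 0.326 CPM for EGLN3 and 67.99 and 27.4 CPM for NDRG1. CA9 and EGLN3 had a mean under 1 CPM. The part of that library in these differences was not tested. For LDHA the difference was -0.56 ± 0.35 and for NDRG1 -0.74 ± 0.34. Errors of this size do not show that the drugs act alike.

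Genes beside the 39 were taken from lists of the surrounding pathways. Over all genes, 6.17% fell and 7.55% rose per doubling of AZA, and 0.791% and 2.18% did per doubling of decitabine. Of 14 tested genes of other glycolytic isoforms and steps, 2 fell and 2 rose per doubling of AZA. PKM2, the symbol under which the files list pyruvate kinase M, was at a median of 2423 CPM untreated and 2188 CPM under AZA, with a slope of -0.17 ± 0.031 (adjusted p = 0.00804). Basigin, the chaperone of MCT1 and MCT4 encoded by BSG, rose with 0.11 ± 0.027 (adjusted p = 0.0232). HKDC1, a hexokinase, had a change of -2.68 ± 0.71 under AZA (adjusted p = 0.0896), at a highest untreated level of 13.0 CPM and a median of 0.0203 CPM.

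Of 11 tested genes of pyruvate entry into mitochondria, 6 fell with AZA dose and 0 with decitabine dose. No effect against untreated passed, with BRP44, a subunit of the mitochondrial pyruvate carrier, at -0.22 ± 0.075 and the pyruvate carboxylase gene PC at 0.23 ± 0.093 under AZA. In the pentose phosphate pathway 2 of 9 fell and 1 rose with AZA dose, and 1 rose with decitabine dose. The riser was TKTL1, a transketolase-like gene, at 0 to 0.261 CPM in the 6 untreated libraries, 0.495 to 60.7 CPM (median 1.90) under AZA and 0.261 to 29.7 CPM (median 1.84) under decitabine. The slopes were 2.57 ± 0.24 (adjusted p = 0.000965) and 2.28 ± 0.14 (adjusted p = 2.72e-06).

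Of 12 tested regulators of HIF, 1 rose and 0 fell with AZA dose. It was EPAS1, which encodes HIF2 alpha and is named here after its value was seen, with 0.36 ± 0.060 (adjusted p = 0.00538). Against untreated, the AZA change of EPAS1 was -0.026 ± 0.27 (adjusted p = 0.97). Its median level was 5.20 CPM untreated and 2.71 CPM under AZA. VHL, the ubiquitin ligase subunit that binds hydroxylated HIF, was at 0.28 ± 0.066 under AZA (adjusted p = 0.0664). Of 33 other HIF targets tested, 6 fell and 2 rose per doubling of AZA, and 1 fell and 1 rose per doubling of decitabine. The share of these targets that rose with AZA dose does not exceed the 7.55% of all genes. KDM4C, a histone demethylase, was the 1 gene of all these lists that passed in an effect against untreated, at -0.32 ± 0.067 under AZA (adjusted p = 0.0483). PLIN2, a lipid droplet protein, rose with dose of both drugs, with slopes of 0.27 ± 0.044 for AZA and 0.22 ± 0.048 for decitabine. FAM162A, a mitochondrial HIF target, fell with dose of both, at -0.32 ± 0.061 for AZA and -0.16 ± 0.035 for decitabine.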

How the data were processed

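RNA-seq read counts per gene were used as deposited by the authors: raw whole-number counts of 25559 genes in each of 24 libraries. Per the labels, the tools included DESeq2, STAR and limma, with GRCh37.p2 as the build. No counter or annotation is named in the sources used here. The labels name both polyA RNA and rRNA-depleted total RNA, so the enrichment step is uncertain. Groups came from the labels, with 1 library per condition.

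From the counts, low genes were removed with filterByExpr (at least 10 counts, total of at least 15), libraries were scaled by TMM and genes were tested with the quasi-likelihood F test of edgeR 4.0.16 in R 4.3.3, with Benjamini-Hochberg adjustment over all genes tested and a threshold of 0.05. Treated libraries were set against untreated ones of the same set with cell line as a block, and slopes were fitted per doubling of dose over the 9 treated libraries of a drug. Effects by line and the difference between drugs used all 24 libraries. Log2 folds of single libraries used a prior count of 2. DESeq2 1.42.0 and limma 3.58.1 were alternatives, and tests were checked on simulated data. Depth was 13892514 to 32496676 counts.

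The members, lists and tests were chosen with earlier results of these data known. Given in every library were the 6 members with the smallest p for each drug and each slope among those with at least 1 CPM, the 4 with the smallest p in each test of a difference, and HIF1A, LDHA and SLC2A1, while the rest could be named. From every other list up to 3 genes with the smallest p per drug were named. The values of BNIP3 in every library, and EPAS1, KRT8, KRT18 and PECAM1, were added after they were seen. A few of the other genes on these lists are not reported here. Slopes by line, and both untreated libraries as controls for effects by line, were also added after the data were seen. Motifs were searched in RefSeq windows of GRCh38.p14, and exon lengths came from the basic gene set of GENCODE.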

Additional observations from a re-analysis of the deposited data

Results flagged for a closer look

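The AZA effect against untreated cells differed between lines for ANKZF1 (adjusted p = 0.00981, edgeR), NDRG1 (adjusted p = 0.0268) and HK1 (adjusted p = 0.0497), where 0.0969% of all genes were called. In each, PF382 had the most negative effect. That effect rests on the untreated PF382 library of the AZA set, which lay above that of the decitabine set for each gene.

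Slopes on AZA dose, which use no untreated library and were tested after the data were seen, differed between lines for 8 of 36 members and 15.7% of all genes. Both glucose transporters were among them, SLC2A1 (adjusted p = 6.19e-06) and SLC2A3 (adjusted p = 0.00977), and so was the lactate exporter SLC16A3 (adjusted p = 0.00307). The others were the flux regulator PFKFB3 (adjusted p = 9.31e-05), NDRG1 (adjusted p = 0.00145), MXI1 (adjusted p = 0.00403), the oxygen sensor EGLN1 (adjusted p = 0.0142) and the enzyme HK2 (adjusted p = 0.0292).

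Slopes on decitabine dose differed between lines for 7 of 38 members and 6.1% of all genes. These were BNIP3 (adjusted p = 0.000590), PFKP (adjusted p = 0.00249), SLC2A1 (adjusted p = 0.00579), GPI (adjusted p = 0.00585), SLC16A3 (adjusted p = 0.00627), KDM3A (adjusted p = 0.0070) and VEGFA (adjusted p = 0.0190). SLC2A1 and SLC16A3 were called for both drugs.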

How the results depend on the processing

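For AZA against untreated, 0 members passed with edgeR, and 6 did with DESeq2, 1 with limma voom, 10 with both untreated libraries of each line as controls and 21 with a slope on dose rank 0 to 3 over treated and untreated libraries. The shares of all genes rose too, at 1.17%, 6.89%, 2.76%, 20.5% and 21.4% in the same order. For decitabine the counts were 0 with edgeR (0% of all genes), 3 with DESeq2 (2.93%), 0 with limma voom (0.0755%), 11 with both untreated libraries (12.7%) and 17 with the rank slope (14%). Both edgeR counts were 0 when any 1 treated library or any 1 line was left out. No untreated library was left out alone. The AZA slope had 15 to 22 called members when a library or a line was left out (6.09% to 14.1% of all genes). It had 21 to 24 under the other scalings, filters and tools (10.7% to 17.2%). Without a block for cell line it had 0 (0% of all genes), and PFKM (0.019) and LDHB (0.011) changed sign. The decitabine slope had 8 called members (2.97% of all genes), 13 without a low-count filter (3.84%) and 13 with DESeq2 (4.36%). It had 0 without the line block (0% of all genes) and 1 to 10 when a library or line was left out (0.805% to 4.72%). The AZA effect by line had 3 called members (0.0969% of all genes), 9 with DESeq2 (2.52%), 0 in the 12 libraries of its own set (0.0511%) and 0 with both untreated libraries as controls (0.707%). The untreated sets differed for 7 members (10.6% of all genes), 11 with DESeq2 (14.4%) and 7 to 25 when a line was left out (3.94% to 14.1%). The decitabine slope by line had 7 called members (6.1% of all genes) and 14 without the filter (6.25%). The cause of these differences was not tested. The labels carry no replicate numbers, so cell line was the block that matched treated to untreated libraries. With 1 library per condition, a single dose has no replicate check, and members near 1 CPM rest on few counts.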
